A study of Rattus norvegicus with 7 samples.

Results

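Interferon-related genes were examined in NR8383 cells, a line of rat alveolar macrophages, 4 h after exposure to zinc oxide nanoparticles (ZnO NPs). The genes were taken by name from the array design: the interferon receptors, the RNA sensors, the interferon regulatory factors (IRF), the STAT factors, the guanylate-binding proteins, the Schlafen genes, and the Ifi, Ifit, Ifitm, Isg, Oas and Mx effectors with Usp18 and Rsad2. They came to 69 of the 36174 gene names on the array, carried by 89 of its 45598 probes. The rule used names only and no measured value. RNA of 3 biological replicates incubated with uncoated ZnO NPs and of 4 biological replicates without NPs (control) was hybridized on 1 one-color Agilent array each, all cells being held in medium free of serum during the 4 h. The labels give a dose of 2 µg/mL for the exposed cells, whereas the methods of the study give a different one, so the groups are named here only as ZnO and control. NR8383 was established by lung lavage of a normal rat, and all results concern this 1 line.

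Interferons are secreted proteins that warn cells of infection. Type I interferons bind the receptor made of Ifnar1 and Ifnar2, and interferon gamma binds the one made of Ifngr1 and Ifngr2. The receptors activate STAT factors, which with Irf9 switch on the interferon-stimulated genes, among them antiviral proteins that sense or degrade foreign RNA. Alveolar macrophages are among the cells that make interferon when RNA sensors are triggered in the lung. Schlafen genes take part in the growth and activation of immune cells, and several of them respond to interferon in the mouse.

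Sequence motifs tied to interferon signalling are shown first, because a good part of the members share them beyond their names. Promoters of RefSeq (GRCr8) were found for 52 of the 69 genes, and the 250 bases before each start site were searched on both strands for the core of the interferon-stimulated response element, GAAA followed by any 2 bases and a further GAAA, or on the other strand TTTC followed by any 2 bases and a further TTTC. It was found in 17 of the 52 member promoters (32.7%), against 1140 of all 33469 promoters (3.41%), and in 12 of the 24 effector promoters (50.0%). The core of the gamma-activated site, TTC followed by any 3 bases and GAA, was found in 11 of the 52 (21.2%), against 2566 of all promoters (7.67%). The motifs were searched one by one, so that matches may overlap, and a match is a description of the letters, not a shown binding site. Below, 50 bases around the first match are given 5′ to 3′ on the strand of the gene, with the matching letters in capitals, for genes of several roles.
Irf7 (chr1:205800063-205800112, minus strand): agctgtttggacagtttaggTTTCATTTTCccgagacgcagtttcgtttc
Gbp2 (chr2:234005676-234005725, plus strand): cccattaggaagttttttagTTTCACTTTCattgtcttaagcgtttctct
Gbp5 (chr2:233910923-233910972, plus strand): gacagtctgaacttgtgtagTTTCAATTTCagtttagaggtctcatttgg
Isg20 (chr1:142239947-142239996, plus strand): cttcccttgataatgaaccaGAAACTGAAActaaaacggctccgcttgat
Oas1a (chr12:41330405-41330454, plus strand): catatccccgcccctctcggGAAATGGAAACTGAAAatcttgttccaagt
Oas1b (chr12:41395882-41395931, minus strand): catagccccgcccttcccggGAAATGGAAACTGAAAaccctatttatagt
Oas1i (chr12:41285170-41285219, plus strand): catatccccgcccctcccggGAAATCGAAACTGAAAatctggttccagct
Ifit3 (chr1:241527262-241527311, plus strand): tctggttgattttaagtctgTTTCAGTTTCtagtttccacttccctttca
In Oas1a, Oas1b and Oas1i, 2 matches overlap and are marked as 1 run of capitals. The values of these genes on the arrays follow in their role groups, and Ifit3 was well above background on only 1 of the 7 arrays.

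The background of each spot had been subtracted by the authors' software. All values below are log2 intensities minus the log2 of the 75th percentile of the same array, so that 0 is the level of that percentile. The percentile lay between 980 and 1603 intensity units on the ZnO arrays and between 958 and 1489 on the control arrays. Spots well above background made up 52.9% to 54.3% of each ZnO array and 51.7% to 56.0% of each control array, and none was saturated. All 7 arrays lay on 1 slide, the ZnO arrays in one row of it and the control arrays in the other, so exposure and place cannot be told apart. Of 13 macrophage markers on the array, 10 were well above background on every array (Cd68, Ptprc, Csf1r, Spi1, Itgam, Mrc1, Siglec1, Fcgr1a, Lyz2 and Mertk), whereas Marco and Cd163 were so on none. Of the markers of other cell types, only Cd3d, Col1a2, Dcn, Cdh5 and Mpo were well above background on every array. No marker passed limma's test between the groups. In these bulk samples, fewer cells of a type and less RNA per cell cannot be told apart.

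The test took probes that were well above background throughout the ZnO arrays, the control arrays or both. That held for 59 of the 89 member probes and 52 of the 69 genes, and for 20043 probes of the whole array. Of the 59, 57 were well above background on all 7 arrays, and the others on 6: Ifih1 on 3 ZnO and 3 control arrays, and Slfnl1 on 2 ZnO and 4 control arrays. Of the 30 probes not tested, 23 were well above background on no array.

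None of the 52 tested interferon-related genes rose or fell past the test in NR8383 exposed to ZnO NPs for 4 h. At an adjusted p under 0.05 from limma (Benjamini-Hochberg over all probes tested), 0 of the 59 member probes were higher and 0 lower, where 0.0499% of all probes tested passed. At the thresholds of the study (fold change over 1.5 at an adjusted p under 0.001), the count in this fit was also 0, where 0.02% of all probes passed. The study itself reports many more genes past these thresholds after ZnO. The lowest adjusted p among the members was 0.414 (limma), for Ifnar1. At an unadjusted p under 0.05, 0 member probes were higher (3.06% of all probes) and 3 were lower (2.86% of all probes), among them those of Ifnar1 and Irf4. The ZnO arrays lay entirely above the control arrays for 0 member probes (3.8% of all probes) and entirely below them for 4 (3.59% of all probes), among them those of Ifnar1, Irf4 and Ddx58.

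The member probes spread closely around no change. Their log2 fold changes lay between -0.69 and 0.23, with 23 higher, 36 lower and a median of -0.05, beside a median of -0.01 over all probes tested, 52.1% of which were below 0. The sign of small values depends on the scaling: with spike-in centring, which moved the median of all probes to 0.12, 43 member probes were higher and 16 lower, and 20 changed sign. With 1 probe taken for each of the 52 genes, the brightest, 19 were higher, 33 lower and the median was -0.06. The 95% interval of the fold change stayed within 1.5-fold either way for 51 of the 59 member probes (86.4%), beside 82.7% of all probes, and within 2-fold for 57. The intervals of Gbp1 and Slfnl1 went beyond 2-fold, and their replicates within a group differed widely. The members' median lay below that of all probes under each of the 20 alternative settings, by a log2 difference of -0.06 to -0.02. Median centring, spike-in centring and other variance estimates cannot change this difference, and fits with 1 array left out share most of their arrays. The settings are therefore not independent checks of it.

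**Figure D1:**
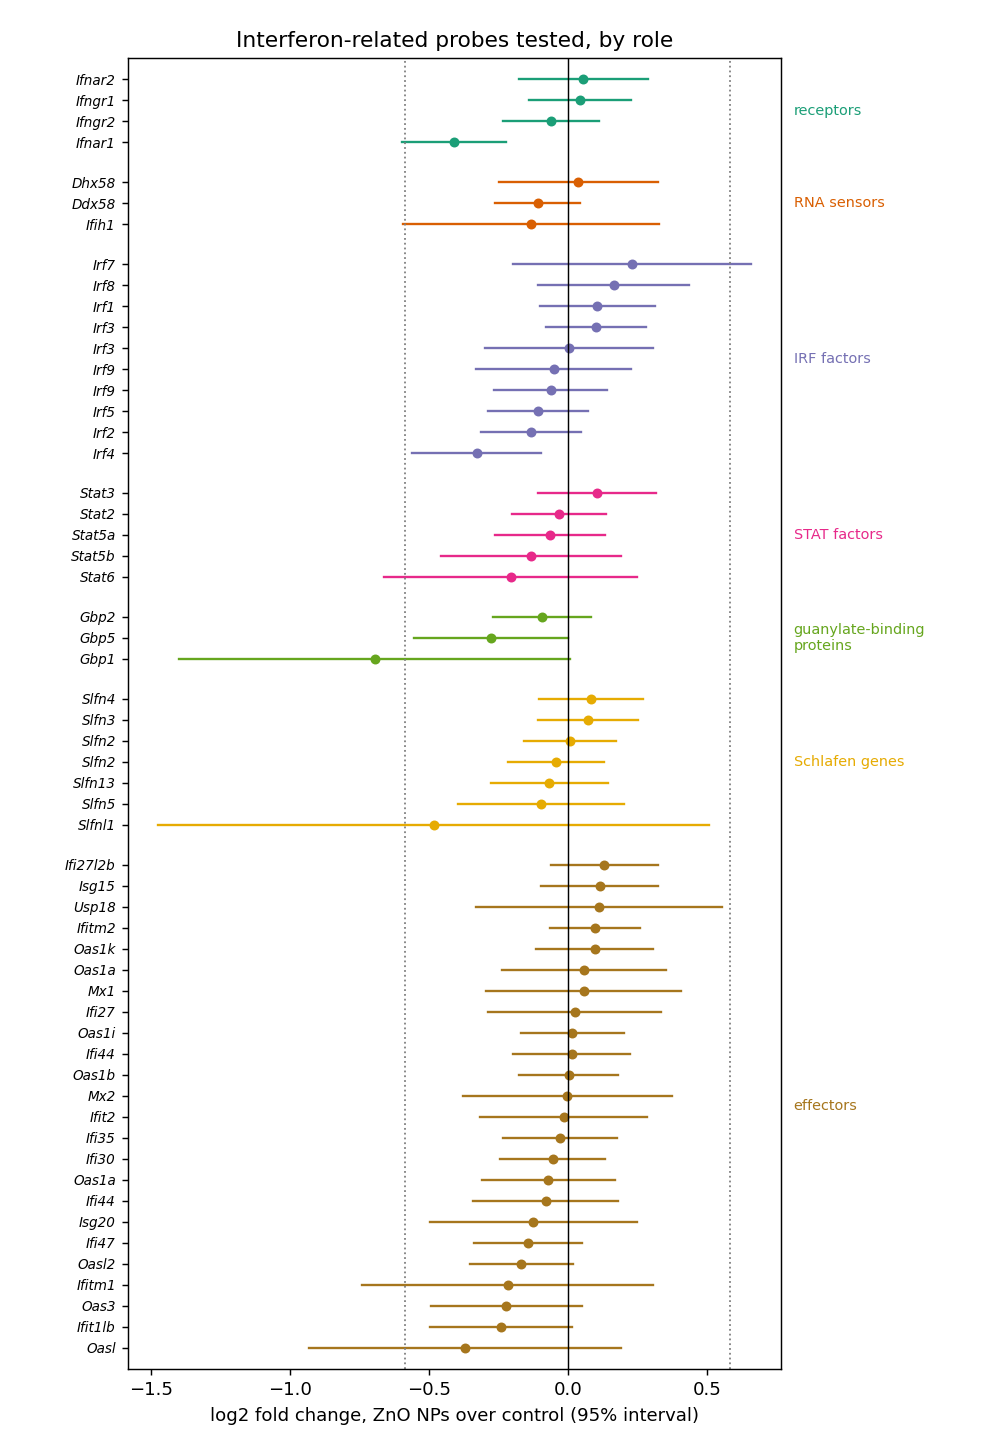
Log2 fold change (ZnO NPs over control, horizontal axis) of 56 of the 59 interferon-related probes tested, with the 95% interval of limma as a line, grouped by role. Genes with several tested probes appear once for each; the dotted lines mark a 1.5-fold change either way, and 48 of the 56 intervals stay between them, while those of Gbp1 and Slfnl1 are the widest.

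All 4 receptor genes were well above background on every array. Ifnar1, 1 chain of the type I interferon receptor (probe at chr11:31477252-31477311 of rn4), had values of -2.04, -2.08 and -2.07 on the ZnO arrays, against -1.74, -1.76, -1.54 and -1.57 on the control arrays. The groups did not overlap, and the ZnO arrays lay within 0.04 of each other. The log2 fold change was -0.41 (standard error, SE, 0.08), a fold of 0.753, with an unadjusted p of 0.00115 and an adjusted p of 0.414 from limma. Ifnar2, the other chain of that receptor, averaged -0.45 ± 0.19 on the ZnO arrays (SD, n = 3) and -0.50 ± 0.07 on the control arrays (SD, n = 4). For the receptor of interferon gamma, the log2 fold changes were 0.05 for Ifngr1, the chain that binds the ligand, and -0.06 for Ifngr2, its partner, each with overlapping groups. The receptors together had 2 probes higher and 2 lower, with a median of -0.01.

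The RNA sensors detect viral RNA in the cytoplasm and start the making of interferon. Ddx58, which encodes RIG-I (named Rig1 in the current annotation; chr5:57598203-57598262 of rn4), had values of -2.03, -1.93 and -2.02 on the ZnO arrays, against -1.83, -1.87, -1.93 and -1.92 on the control arrays. The groups did not overlap, but they touched to within rounding at -1.93. The log2 fold change was -0.11 (SE 0.07, limma adjusted p = 0.919). Ifih1, which encodes MDA5 (chr3:44551104-44551163), had values of -5.48, -5.63 and -5.46 on the ZnO arrays, against -5.19, -5.13, -5.96 and -5.28 on the control arrays. Control replicate 3 was the lowest of the 7, and the groups overlapped (log2 fold change -0.13, SE 0.20). With 1 array left out, the log2 fold change of Ifih1 ranged from -0.32 (without control replicate 3) to -0.044 (without control replicate 2), and it was -0.023 with the deposited table. Dhx58, a relative of these sensors that lacks their signalling domain, averaged -0.88 ± 0.20 on the ZnO arrays (SD, n = 3) and -0.92 ± 0.15 on the control arrays (SD, n = 4).

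The interferon regulatory factors are transcription factors that switch on interferons and their target genes. Of the 10 probes tested, of 8 genes, 5 were higher and 5 lower (median -0.02). Irf4, a factor of lymphocytes and of alternatively activated macrophages (chr17:40170510-40170569 of rn4), had values of -1.94, -1.68 and -1.80 on the ZnO arrays, against -1.33, -1.41, -1.60 and -1.57 on the control arrays. The groups did not overlap, with ZnO replicate 2 next to control replicate 3. The log2 fold change was -0.33 (SE 0.10, limma adjusted p = 0.721). A further Irf4 probe was well above background on 2 of the 7 arrays and was not tested.

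At the other end of the IRF genes stood Irf7, the main amplifier of type I interferon production, with a log2 fold change of 0.23 (SE 0.18, limma adjusted p = 0.952). Its values were -1.83, -1.32 and -1.55 on the ZnO arrays, against -1.95, -1.41, -2.09 and -1.73 on the control arrays, and the groups overlapped. Irf8, a factor that macrophages need to develop, had a log2 fold change of 0.17, and Irf1, an early target of interferon gamma, one of 0.11. Irf3, which is activated when the sensors are triggered, had 2 tested probes at 0.00 and 0.10. Irf9, the partner of Stat2, had 2 at -0.06 and -0.05. Irf2, which competes with Irf1, stood at -0.13 and Irf5, a factor of inflammatory macrophages, at -0.11. The groups overlapped for all of these probes.

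The STAT factors carry the signal of the receptors to the nucleus. Stat4, a factor best known in lymphocytes, was well above background on no array. Stat2, which acts with Irf9 in the type I response, averaged 1.85 ± 0.04 on the ZnO arrays (SD, n = 3) and 1.88 ± 0.08 on the control arrays (SD, n = 4). Stat3, used by interleukins 6 and 10, had a log2 fold change of 0.11 with overlapping groups. Stat5a and Stat5b, used by growth factors such as GM-CSF, stood at -0.06 and -0.13. Stat6, used by interleukin 4, had values of -1.37, -2.04 and -1.94 on the ZnO arrays, against -1.79, -1.76, -1.52 and -1.25 on the control arrays. ZnO replicate 1 lay with the higher control arrays and the other ZnO replicates below all of them, which left the groups overlapping (log2 fold change -0.21, SE 0.19).

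The guanylate-binding proteins are interferon-induced GTPases that attack vacuoles holding microbes. Their genes lie side by side on chromosome 2, and 3 of the 5 were tested, all with negative log2 fold changes (median -0.28), although Gbp2 was at 0.037 with spike-in centring. Gbp1 (chr2:240715073-240715132 of rn4) had values of -4.76, -4.62 and -4.10 on the ZnO arrays, against -4.38, -3.35, -3.32 and -4.15 on the control arrays. The groups overlapped, because control replicates 1 and 4 lay well below control replicates 2 and 3. The log2 fold change of -0.69, the lowest among the members in this fit, had an SE of 0.30 and an adjusted p of 0.844 from limma. Normexp background correction gave -0.41 for Gbp1, and the table of all arrays gave -0.39. Without ZnO replicate 1 it was -0.56, and Oasl (-0.69) and Slfnl1 (-0.68) were then lower. Gbp5, whose product promotes inflammasome assembly, had values of -2.88, -3.09 and -3.25 on the ZnO arrays, against -2.64, -2.82, -2.73 and -3.00 on the control arrays. ZnO replicate 1 lay among the control arrays (log2 fold change -0.28, SE 0.12, limma adjusted p = 0.844). Gbp2 stood at -0.09, and no probe of Gbp3 or Gbp4 was tested.

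**Figure D2:**
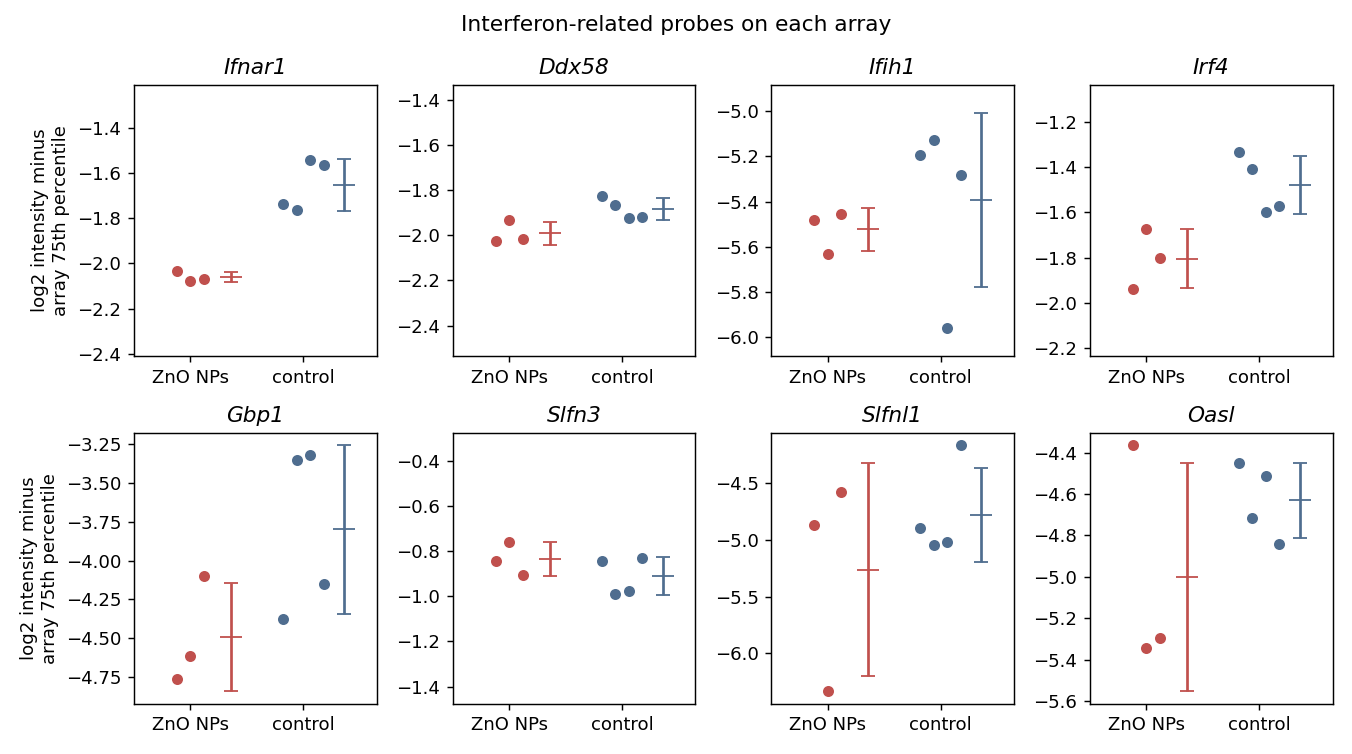
Log2 intensity minus the 75th percentile of the array (vertical axis, scaled for each gene) on the 3 ZnO arrays and the 4 control arrays, with the mean and SD of each group beside the points. The groups do not overlap for Ifnar1, Ddx58 and Irf4, and they overlap for Ifih1, Gbp1, Slfn3, Slfnl1 and Oasl.

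Of the 8 Schlafen genes, 6 were tested with 7 probes, of which 3 were higher and 4 lower (median -0.04). Slfn3 (chr10:71300407-71300466 of rn4) had values of -0.84, -0.76 and -0.91 on the ZnO arrays, against -0.84, -0.99, -0.98 and -0.83 on the control arrays. The groups overlapped, and ZnO replicate 1 and control replicate 1 had the same value to 2 decimals. The log2 fold change was 0.07 (95% interval -0.11 to 0.25, SE 0.08, limma adjusted p = 0.976). The transcript of this probe is listed under Slfn4 in the current annotation, and the tested probe that the array itself names Slfn4 stood at 0.08. A further probe named Slfn4 was well above background on no array and was not tested. The study, whose methods give another dose, names Slfn3 among the genes downregulated after ZnO, which the values here do not show.

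Slfn2, which keeps immune cells quiescent in the mouse, had 2 tested probes that differed in sign, at -0.04 and 0.01. Slfn13 (Slfn9 in the current annotation) stood at -0.07 and Slfn5 at -0.10, both with overlapping groups. Slfnl1, a Schlafen-like gene on chromosome 5 (chr5:141133633-141133692 of rn4), had values of -4.87, -6.34 and -4.57 on the ZnO arrays, against -4.89, -5.04, -5.01 and -4.16 on the control arrays. Its log2 fold change of -0.48 (SE 0.43, limma adjusted p = 0.967) came with ZnO replicate 2 far below the rest, and it was 0.055 without that replicate. Slfn1 and Slfn14 were well above background on no array.

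The effectors are the products through which interferon acts against viruses. Of their 33 genes, 22 were tested with 24 probes, of which 11 were higher and 13 lower, with a median of -0.01 and a range from -0.37 to 0.13. The probes of Ifit1, Ifit3, Ifitm3, Ifitm5, Ifitm10, Oas1d, Oas1e, Oas1f, Oas1h, Oas2 and Rsad2 were not tested. Rsad2, which encodes viperin, and Ifit1, which binds viral RNA ends, were well above background on none of the 7 arrays, and Ifit3 was so on 1. Other effectors gave strong spots: Mx2, a dynamin-like antiviral GTPase, averaged 3.61 ± 0.14 on the ZnO arrays (SD, n = 3) and 3.61 ± 0.29 on the control arrays (SD, n = 4). Ifi30, a lysosomal thiol reductase that prepares antigens, averaged 5.15 ± 0.12 on the ZnO arrays and 5.21 ± 0.07 on the control arrays (SD, n = 3 and n = 4).

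The oligoadenylate synthetases make the second messenger that activates RNase L. Oasl, a relative without that activity, had the lowest log2 fold change of the effectors, -0.37 (SE 0.24, limma adjusted p = 0.932; probe between positions 42958314 and 42959155 of chromosome 12, rn4). Its values were -4.36, -5.34 and -5.30 on the ZnO arrays, against -4.45, -4.72, -4.51 and -4.84 on the control arrays. ZnO replicate 1 was the highest of the 7 and the other ZnO replicates the lowest. With 1 array left out, the log2 fold change of Oasl ranged from -0.69 (without ZnO replicate 1) to -0.20 (without ZnO replicate 2), and it was -0.14 with normexp and quantile normalization. Oas3 stood at -0.22 and Oasl2 at -0.17. The genes of the Oas1 cluster of chromosome 12 had log2 fold changes of 0.00 for Oas1b, 0.02 for Oas1i and 0.10 for Oas1k. Oas1a had 2 tested probes of differing sign, at -0.07 and 0.06, and 1 of them shares a run of 19 of its 60 bases with the probe of Oas1k.

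Isg15, the ubiquitin-like protein that interferon induces, had values of -1.29, -1.40 and -1.43 on the ZnO arrays, against -1.54, -1.46, -1.63 and -1.32 on the control arrays. The groups overlapped through control replicate 4 (log2 fold change 0.11, SE 0.09, limma adjusted p = 0.952). Usp18, the protease that removes Isg15 and damps the receptor, also stood at 0.11, and Mx1 at 0.06. Isg20, an exonuclease of RNA, stood at -0.12. Among the Ifi genes, the log2 fold changes were 0.13 for Ifi27l2b, 0.02 for Ifi27, -0.03 for Ifi35, -0.05 for Ifi30 and -0.14 for Ifi47, with 2 probes of Ifi44 at -0.08 and 0.01. Ifit1lb (Ifit1bl in the current annotation) stood at -0.24 and Ifit2 at -0.01. Of the Ifitm proteins, which hinder the entry of viruses, Ifitm2 stood at 0.10 and Ifitm1 at -0.22.

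The spread between replicates of 1 group was often wider than the difference between groups. The SD over the control arrays had a median of 0.119 over the member probes (0.130 over all probes tested), and that over the ZnO arrays a median of 0.101 (0.134 over all probes). The widest control SDs belonged to Gbp1 (0.545), Slfnl1 (0.416), Ifih1 (0.385), Usp18 (0.349), Ifitm1 (0.313), Isg20 (0.306), Irf7 (0.297) and Mx2 (0.290). Usp18, for instance, had values of -3.53, -3.20 and -3.43 on the ZnO arrays, against -3.73, -3.11, -3.85 and -3.31 on the control arrays. For Usp18, Irf7, Ifih1 and Mx2, control replicate 3 was the lowest of the control arrays, and Mx2 had 3.19 there, against 3.63 to 3.82 on the other control arrays. The choice of these genes was made with their values in view.

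Counts by array were made over the 59 tested member probes only, so no share of all probes stands beside them. ZnO replicate 1 was the highest of the ZnO arrays for 32 probes, and ZnO replicate 3 was the lowest for 25. Among the control arrays, replicate 4 was the lowest for 21 probes and the highest for 19. For the 24 effector probes, ZnO replicate 1 was the highest ZnO array for 17 and control replicate 3 the lowest control array for 10. Over all 20043 probes, the deviations of arrays from their group mean were correlated between the groups, which does not give such counts. The deviations of ZnO replicate 1 correlated with those of control replicate 3 (r = 0.197) and of control replicate 4 (r = 0.167). They correlated inversely with those of control replicate 2 (r = -0.405). Stat6, Ifitm1 and Oas3 were higher on control replicates 3 and 4 than on control replicates 1 and 2. Other members, such as Irf4, Irf5, Mx1 and Ifit2, were lower there. The part of these differences between arrays in the members' values was not tested.

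**Figure D3:**
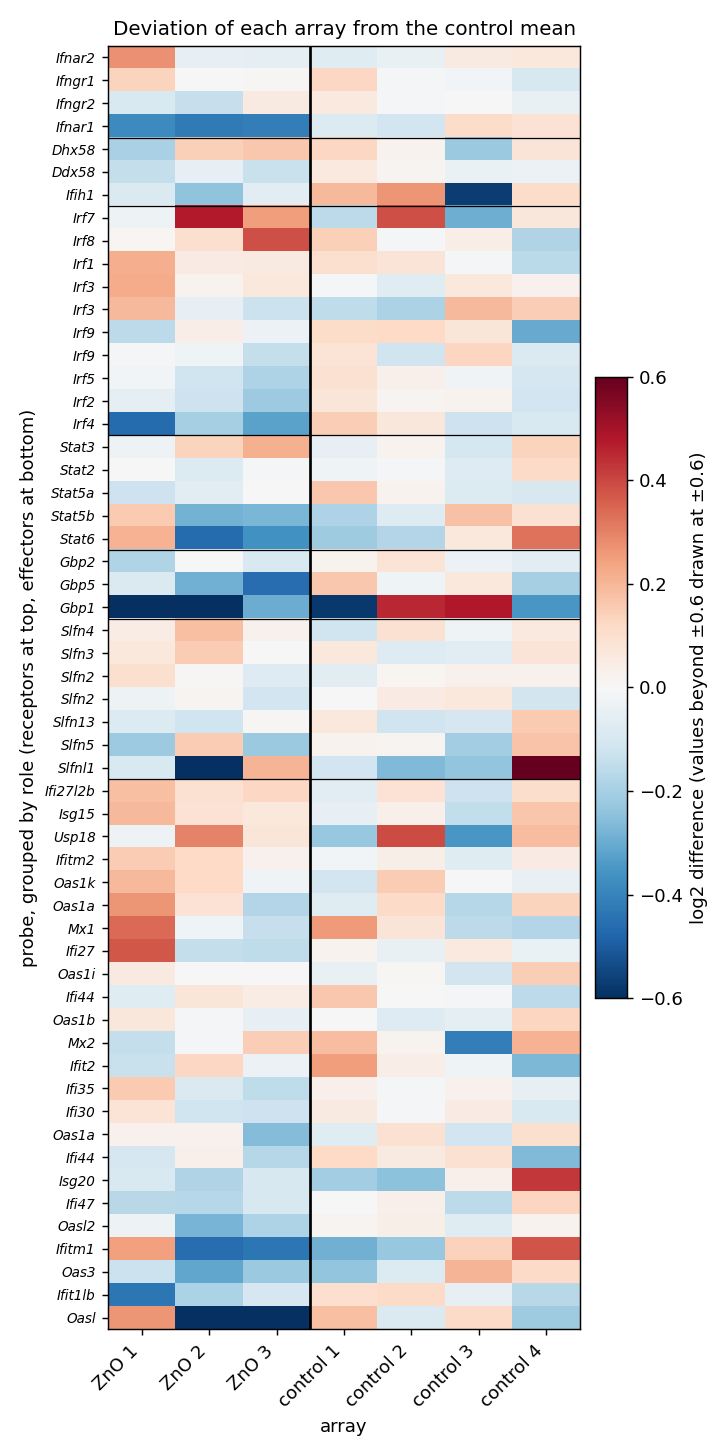
Deviation of each array (columns, ZnO to the left of control) from the control mean of the same probe, in log2 units, for 56 of the 59 tested probes, grouped by role. Ifnar1 and Irf4 are below the control mean on all 3 ZnO arrays, while Stat6, Ifitm1 and Oasl are above it on ZnO replicate 1 and below it on ZnO replicates 2 and 3.

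Other genes of interferon production, signalling and response were counted in the same fit. Of 82 names listed, 73 were on the array and 61 were tested, each by its brightest probe. Their log2 fold changes lay between -0.35 and 0.38, with 21 higher and 40 lower (52.1% of all probes were lower) and a median of -0.04. The sign of small values again depends on the scaling. Spike-in centring moved the median of all probes to 0.12, and the directions of this list under it were not counted. At an adjusted p under 0.05 from limma, 0 were called, and the lowest adjusted p was 0.690. Without adjustment, 3 of the 61 were higher and 3 lower at a p under 0.05, where 3.06% of all probes were higher and 2.86% lower. The ZnO and control arrays did not overlap for 3 higher genes (3.8% of all probes) and 3 lower genes (3.59%). The 6 genes past the unadjusted threshold are given below as values only. The interferon genes Ifna1, Ifnb1 and Ifng and the interferon-induced chemokine Cxcl11 were among the 9 genes well above background on no array. A further interferon gene, Ifna4, was tested. It had the lowest log2 fold change of the list, -0.35 (SE 0.23, limma adjusted p = 0.932), with overlapping groups.

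The 3 lower genes were 2 adaptors of nucleic acid sensing and a peptide transporter. Tmem173, which encodes STING, the adaptor of DNA sensing, had values of -2.84, -2.92 and -2.86 on the ZnO arrays, against -2.61, -2.44, -2.73 and -2.46 on the control arrays. Mavs, the adaptor of the RNA sensors on mitochondria, had -0.07, -0.05 and -0.04 on the ZnO arrays, against 0.14, 0.13, 0.16 and 0.19 on the control arrays. Neither overlapped between groups, with log2 fold changes of -0.31 (SE 0.09, limma adjusted p = 0.690) for Tmem173 and -0.21 (SE 0.06, limma adjusted p = 0.696) for Mavs. Tap1, which carries peptides to class I molecules, stood at -0.23 with overlapping groups.

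The 3 higher genes did not overlap between groups either. They were Ube2l6, the enzyme that conjugates Isg15, at a log2 fold change of 0.38 (SE 0.13, limma adjusted p = 0.787), Cd274, which encodes the checkpoint ligand PD-L1, at 0.31, and Traf6, an adaptor of Toll-like receptors, at 0.24. Ube2l6 had values of -3.95, -3.69 and -3.86 on the ZnO arrays, against -4.25, -3.99, -4.51 and -4.09 on the control arrays. Jak1, Jak2, Tyk2 and the other listed genes did not pass the unadjusted threshold.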

How the data were processed

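RNA of the 7 replicates was labeled with Cy3 and hybridized on 7 arrays on 1 slide. The authors read the scans with Feature Extraction 11.0.1.1 from Agilent, and the deposited intensity of each spot is background-subtracted but not normalized between arrays. The paper states percentile normalization and Benjamini-Hochberg adjustment, with no percentile named. The deposited table of the whole series holds, at all 62976 spots, the median scanner intensity, and was used as an alternative.

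Intensities were divided by the 75th percentile of the 58717 non-control spots of their array and put on the log2 scale, and replicate spots of a probe were averaged without outlier spots. ZnO and control arrays were compared over 20043 probes by lmFit and eBayes of limma 3.58.1 (R 4.3.3), with Benjamini-Hochberg adjustment and two-sided tests. The fit was tested on simulated data. Tables and plots were made with Python 3.11.15, numpy 2.4.6, pandas 2.3.3 and matplotlib 3.10.9. Precision is limited by the number of arrays.

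Of the member probes, 70 were matched by accession, 16 by symbol and 3 by synonym to the current annotation. Positions are those of the files (rn4, 87 of 89 probes). No annotation of that build was used, so exons and UTRs are not given. Promoter sequences are those of RefSeq on GRCr8.

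The members, gene lists, tests and alternatives were chosen with earlier results of these data known. Values for every array are given for member probes with an adjusted p under 0.05, those with an unadjusted p under 0.05 or groups that do not overlap (up to 12), the largest change of each role group, and Slfn3. Some further members are shown to illustrate a group and were chosen after their values were seen. A gene takes its brightest tested probe. The values of some members are not reported here, although the counts over all members include them.

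Alternatives were quantile, median and spike-in centring (278 spots), normexp background correction (offset 50), the deposited table, other filters on dim probes, other variance estimates, weights for arrays, a block for the replicate number, each array left out in turn, the thresholds of the study, and the mean of the probes of a gene.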

Additional observations from a re-analysis of the deposited data

Results flagged for a closer look

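In 5 of the 59 tested member probes, 1 control array stood apart from the other 3 by Dixon's test at the 95% level. Chance does so in about 1 of 20 groups. The test was run on member probes only. It sets the gap against the range of the control arrays, so a small gap can pass. A probe of Irf9 had -3.33 on control replicate 4, against -2.96 to -2.91 on the other control arrays. The second probe of Slfn2 had 2.20 on control replicate 1, against 2.28 to 2.29 on the others. Slfnl1 had -4.16 on control replicate 4, against -5.04 to -4.89. A probe of Ifi44 had -1.49 on control replicate 4, against -1.17 to -1.10. Oasl2 had -0.44 on control replicate 3, against -0.35 to -0.34. The other probes of Irf9, Slfn2 and Ifi44 did not stand apart in this way. The groups of 3 ZnO arrays were too small for this test.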

How the results depend on the processing

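No member probe was called under any of the 21 alternatives, and no gene of the wider list under any of its 19. Among the 21, the thresholds of the study are stricter ones on the same fit and could only give 0. With the replicate block, 0 member probes and 4 of all probes were called, against 10 of all probes without it. The deviations of same-numbered arrays correlated at -0.09, 0.21 and -0.23 over all probes, and those of differently numbered arrays at -0.40 to 0.33. With so few arrays, these correlations cannot show whether equal numbers mark pairs. The count of all probes called was 5 with spike-in centring and 5 with no filter on dim probes. The count of member probes at an unadjusted p under 0.05 ranged from 0 (spike-in centring) to 10 (array weights), and from 2 to 8 with 1 array left out, 8 being without ZnO replicate 1. Spike-in centring moved the median of all probes to 0.12 and that of the members to 0.08, so directions under it are relative to that shift. Ddx58 had a log2 fold change of 0.022 with spike-in centring, and Slfnl1 ranged from -0.83 (without ZnO replicate 3) to 0.055 (without ZnO replicate 2) with 1 array left out. Ifnar1, Irf4, Gbp1, Slfn3 and Oasl kept their direction under all their alternatives, with limma adjusted p from 0.141 to 1.000 for Ifnar1. Ifih1 stayed below 0 only narrowly, at -0.002 with spike-in centring. Over all 59 tested member probes, 20 changed sign with spike-in centring (43 higher and 16 lower), among them Ifngr2, Irf9 and Gbp2. Spike-in centring moved every member probe up by the same amount, so only probes slightly below 0 changed sign. The reason for that shift and the cause of the other differences between settings were not tested. The largest SEs among the tested member probes were those of Slfnl1 (0.43), Gbp1 (0.30), Oasl (0.24) and Ifitm1 (0.23). All of these probes were dim, but the dim probe of Slfn5 had an SE of only 0.13.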
